A study of Mus musculus with 6 samples.

Results

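The carbonic anhydrase family was examined in the hippocampus of mice that had lost the lysine acetyltransferase CBP from forebrain neurons, with Car12 as the gene of departure. The 8 genes described are Car2, Car4, Car7, Car8, Car10, Car11, Car12 and Car14, taken by name out of 16 carbonic anhydrase genes and 55471 genes in the count table, and all 8 passed the filter on low counts. They were selected with the Control against CBP-ifKO values of these same libraries known, so their differences between genotypes are given as a description, without p values.

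Carbonic anhydrases catalyze the interconversion of carbon dioxide and water with bicarbonate and a proton, and so set how fast pH can be buffered inside a cell, in the synaptic cleft and in the extracellular space. Car2, Car7 and Car13 are cytosolic enzymes, Car5a and Car5b are mitochondrial, and Car4, Car12 and Car14 are tethered to the plasma membrane with the catalytic domain facing outward. Car8, Car10 and Car11 are related proteins that have lost residues needed to hold the catalytic zinc and act as binding partners of other proteins instead. In the brain these proteins are known for their part in activity-dependent pH shifts, in the bicarbonate that flows through GABA-A receptors, and in the secretion of cerebrospinal fluid.

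RNA was sequenced from hippocampi of C57BL/6 mice aged 3 to 6 months, with 3 Control and 3 CBP-ifKO libraries. CBP-ifKO mice carried a floxed Crebbp gene and the Camk2a_creERT2 transgene, which restricts a tamoxifen-activated Cre recombinase to excitatory neurons of the forebrain, so that glia, vessels and interneurons of the same tissue are not targeted. Both groups received 5 intragastric doses of tamoxifen at 20 mg/mL in corn oil. The sample description names Camk2a_creERT2 for the Control group as well, whereas the protocol describes the controls as littermates that lacked creERT2. Every library was a pool of hippocampi from 3 females, so the spread between libraries is a spread between pools.

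Total counts ranged from 10199008 to 14950257 per library and the mitochondrial share from 6.95 to 8.73%. Levels are given as CPM, which are counts divided by a library size that was adjusted by the trimmed mean of M values (TMM), and fold changes as log2 of CBP-ifKO over Control with the standard error (SE) from edgeR. Crebbp, the targeted gene, measured 156, 209 and 209 CPM in Control against 87.2, 99.4 and 109 CPM in CBP-ifKO libraries, each group sorted from low to high, or -0.96 on the log2 scale with an SE of 0.10 (edgeR adjusted p = 3.634e-05). Esr1, whose ligand-binding domain is part of the creERT2 fusion, stayed between 5.65 and 6.29 CPM in Control and lay between 63.6 and 69.4 CPM in CBP-ifKO libraries. Of 17981 genes tested, 4.99% were called lower and 1.40% higher in CBP-ifKO, 6.39% in all, at an edgeR adjusted p under 0.05. The 3 CBP-ifKO values lay below the 3 Control values in 13.9% of the genes. An unadjusted edgeR p under 0.05 was reached by 3816 of the 17981 genes.

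Among the 8 genes, Car12, Car4, Car7 and Car10 were called lower and Car2, Car8, Car11 and Car14 were not called. In the same 4 genes the CBP-ifKO values lay wholly below the Control values. All 8 log2 fold changes were negative, with a median of -0.30 beside a median of -0.0033 over all genes tested. Since these genes were picked on this contrast, nothing is read from their counts against the background shares of 4.99% and 13.9%. In bulk tissue, fewer cells of a type and less RNA per cell cannot be told apart.

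**Figure D1:**
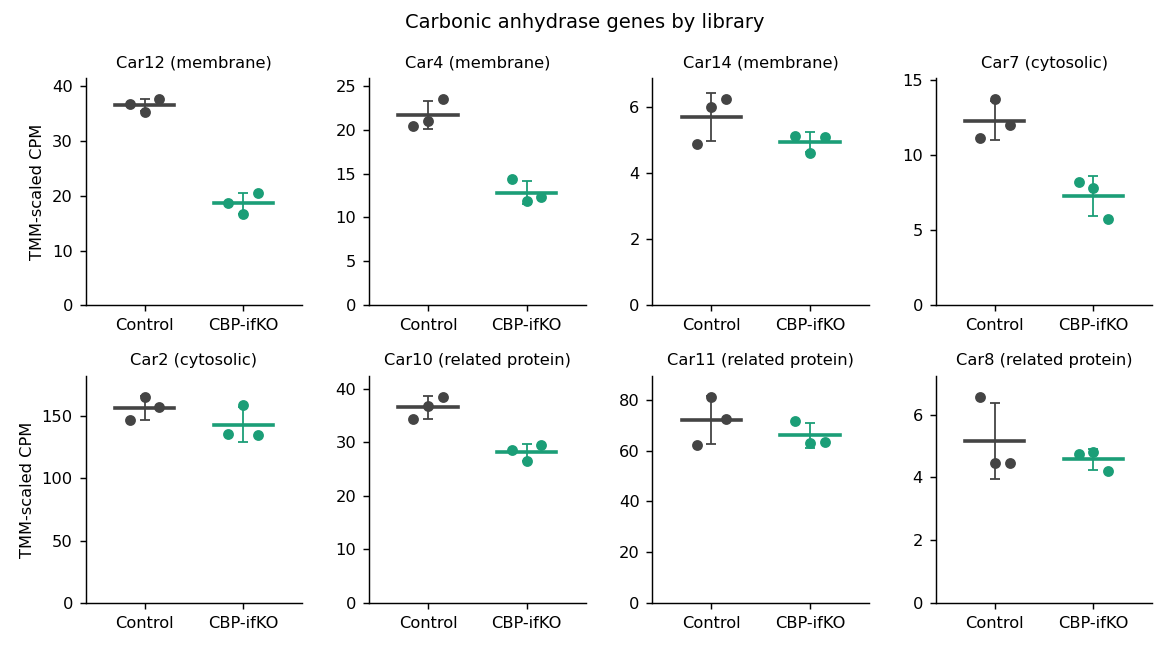
Level of the 8 carbonic anhydrase genes in TMM-scaled CPM (vertical axis, from 0) in each Control and CBP-ifKO library. Points are libraries, horizontal lines are means and error bars are SD (n = 3 per group); the groups are separate for Car12, Car4, Car7 and Car10 and overlap for Car14, Car2, Car11 and Car8.

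Car12, a transmembrane enzyme whose active site faces the extracellular space, had the most negative log2 fold change of the 8 genes. The gene (ENSMUSG00000032373) lies on the plus strand of chromosome 9 from 66713686 to 66766845 (GRCm38). Its level was 36.7, 35.4 and 37.7 CPM in the Control libraries, listed from replicate 1 to 3, against 18.6, 16.7 and 20.6 CPM in the CBP-ifKO libraries. The highest CBP-ifKO library was below the lowest Control library, and the spread within each group was small beside the gap. The means were 36.6 ± 1.15 and 18.6 ± 1.94 CPM (SD, n = 3 per group), so that CBP-ifKO stood at 50.9% of Control. The log2 fold change was -0.98 ± 0.095 (SE), with a 95% interval from -1.18 to -0.78. Under the 17 alternative settings it stayed between -1.05 and -0.89.

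Car4, an enzyme attached to the outer face of the membrane by a GPI anchor, was lower by about as much as Car7, the cytosolic enzyme described further on. The gene (ENSMUSG00000000805) lies on the plus strand of chromosome 11 from 84957786 to 84966044. Its level was 20.5, 21.04 and 23.5 CPM in Control against 14.3, 11.8 and 12.3 CPM in CBP-ifKO libraries, and the groups did not overlap. The means were 21.7 ± 1.61 and 12.8 ± 1.33 CPM (SD, n = 3 per group), with a log2 fold change of -0.76 ± 0.11 (SE) and a 95% interval from -0.998 to -0.53.

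Car14, the other transmembrane enzyme of this class (ENSMUSG00000038526, minus strand of chromosome 3, 95897768 to 95904691), was measured at 4.88, 6.01 and 6.25 CPM in Control against 5.14, 4.601 and 5.10 CPM in CBP-ifKO libraries. The groups overlapped, since Control replicate 1 lay below CBP-ifKO replicates 1 and 3. The log2 fold change was -0.21 with a 95% interval from -0.57 to 0.14, which leaves room for a difference of either sign at a depth of 52 to 70 counts per library. Exons of Car14 share 445 bases, 17.5% of its exon length, with Aph1a on the opposite strand, and it is not stated whether reads were counted by strand.

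The 3 membrane-bound enzymes face outward alike but were measured with unlike log2 fold changes, a contrast that was not tested, and the bases in front of their annotated start sites are shown for that reason. The sequences come from RefSeq on GRCm38.p6 and run 5′ to 3′ on the gene's strand, with CpG dinucleotides in capitals. Those of Car12 and Car4 reach the RefSeq start site. For Car14 the bases nearest that site lie in a GENCODE exon and were left out, which leaves 244 bases. Car12 is chr9:66713436-66713685 on the plus strand, Car4 is chr11:84957504-84957753 on the plus strand and Car14 is chr3:95904692-95904935 on the minus strand.
Car12: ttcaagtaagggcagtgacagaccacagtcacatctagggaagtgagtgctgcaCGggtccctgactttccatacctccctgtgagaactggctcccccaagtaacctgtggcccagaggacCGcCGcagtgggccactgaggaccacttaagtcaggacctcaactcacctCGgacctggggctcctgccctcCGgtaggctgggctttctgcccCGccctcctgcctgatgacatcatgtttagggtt
Car4: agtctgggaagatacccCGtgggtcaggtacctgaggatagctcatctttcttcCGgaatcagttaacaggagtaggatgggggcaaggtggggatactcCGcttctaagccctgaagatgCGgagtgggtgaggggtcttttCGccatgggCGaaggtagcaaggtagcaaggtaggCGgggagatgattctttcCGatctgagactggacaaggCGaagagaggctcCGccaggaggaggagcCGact
Car14: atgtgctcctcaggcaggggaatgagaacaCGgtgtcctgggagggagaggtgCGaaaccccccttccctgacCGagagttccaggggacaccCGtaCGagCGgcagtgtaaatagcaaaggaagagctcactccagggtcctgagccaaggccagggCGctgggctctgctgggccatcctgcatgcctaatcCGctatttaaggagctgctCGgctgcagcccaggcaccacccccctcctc
The Car12 stretch held 6 CpG in 250 bases, the Car4 stretch 11 in 250 bases and the Car14 stretch 9 in 244 bases.

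RefSeq promoter windows of 250 bases before and 50 bases after the start were held for 6 of the 8 genes, 10 windows in all; Car2 and Car8 had none. The full CREB element TGACGTCA, searched on both strands, was in 0 of the 10 windows and in 1.79% of all 32851 windows. Its shorter form TGACG, which is contained in TGACGTCA, was in 2 of the 10 windows and in 20.8% of all windows. One match was in a Car7 window on the minus strand, 6 bases before the start, and the other in a Car10 window on the plus strand, 147 bases before the start. The AP-1 element TGANTCA was in 0 of the 10 windows and in 7.81% of all windows. The windows of Car12 and Car4 held none of these letters.

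Of the 2 cytosolic members, Car7 was called lower and Car2 was not; the difference between them was not tested. Car7, a cytosolic enzyme known from neurons, where it supplies bicarbonate for GABA-A receptor currents, lies on the plus strand of chromosome 8 from 104534689 to 104550343 (ENSMUSG00000031883). Its level was 11.2, 13.7 and 12 CPM in Control against 8.24, 7.82 and 5.76 CPM in CBP-ifKO libraries. The CBP-ifKO values lay below all Control values, with replicate 3 the lowest. The means were 12.3 ± 1.31 and 7.27 ± 1.33 CPM (SD, n = 3 per group), and the log2 fold change was -0.76 ± 0.15 (SE) with a 95% interval from -1.08 to -0.44.

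Car2, the most widely expressed cytosolic enzyme and one that is abundant in oligodendrocytes, lies on the plus strand of chromosome 3 from 14886273 to 14900770 (ENSMUSG00000027562). It was measured at 147, 166 and 157 CPM in Control against 135, 159 and 135 CPM in CBP-ifKO libraries. CBP-ifKO replicate 2 lay within the Control range, so the groups overlapped. The log2 fold change was -0.13 with a 95% interval from -0.28 to 0.027. The ratio of Car7 to Car2, both per kilobase of exon, was 0.0506 to 0.0553 in Control and 0.0284 to 0.0405 in CBP-ifKO libraries. Both genes were picked on this contrast, so the ratio is a description.

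Of the related proteins, Car10 and Car11 bind neurexins and Car8 binds the inositol trisphosphate receptor Itpr1. Car10 (ENSMUSG00000056158, plus strand of chromosome 11, 93098028 to 93601749) was measured at 34.3, 36.8 and 38.5 CPM in Control against 28.5, 26.4 and 29.5 CPM in CBP-ifKO libraries. The groups did not overlap, and the gap between the nearest libraries was narrower than for Car12. The log2 fold change of Car10 was -0.38 ± 0.085 (SE) with a 95% interval from -0.56 to -0.20. It no longer passed the threshold without Control replicate 3, where it was -0.34, or without CBP-ifKO replicate 2, where it was -0.32.

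Car11 (ENSMUSG00000003273, plus strand of chromosome 7, 45699843 to 45704682) was measured at 62.4, 81.3 and 72.5 CPM in Control against 71.8, 63.1 and 63.4 CPM in CBP-ifKO libraries. The lowest value of the 6 was a Control library, so the groups overlapped. The log2 fold change was -0.13 with a 95% interval from -0.31 to 0.058. Its sign was not settled, because it turned to 0.07 once GC content and length were offset.

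Car8 (ENSMUSG00000041261, minus strand of chromosome 4, 8143362 to 8239041) was measured at 6.57, 4.47 and 4.46 CPM in Control against 4.75, 4.80 and 4.20 CPM in CBP-ifKO libraries. Apart from Control replicate 1, the values of both groups lay close together. The log2 fold change was -0.17 with a 95% interval from -0.57 to 0.23, and it was 0.04 without that library.

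**Figure D2:**
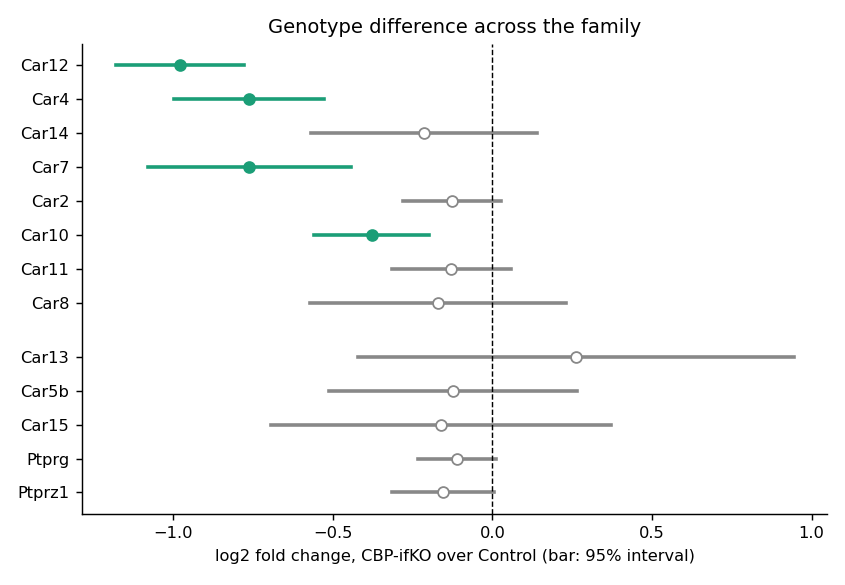
Log2 fold change of CBP-ifKO over Control (horizontal axis) for the 8 genes, the 3 other carbonic anhydrases that were tested and the 2 receptor phosphatases with a carbonic anhydrase-like domain. Points are edgeR estimates, bars are 95% intervals and filled green points passed the adjusted p threshold; Car12 lies furthest left at -0.98, and the intervals of the unfilled genes cross 0.

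The rest of the family contributed little RNA. Car13, Car5b and Car15 were tested and none was called by edgeR, DESeq2 or limma-voom, nor was any below an unadjusted p of 0.05. Their log2 fold changes were 0.26 (adjusted p = 0.710), -0.12 (adjusted p = 0.765) and -0.16 (adjusted p = 0.781) in edgeR. Exons of Car15 share 65.7% of their bases with Gm20518 on the same strand, so its value is uncertain. Car1, Car3, Car5a, Car6 and Car9 were not tested, with between 0 and 7 counts per library, where a count of 0 allows up to 0.197 to 0.298 CPM for counting error alone.

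Ptprg and Ptprz1 are receptor tyrosine phosphatases whose extracellular part holds an inactive carbonic anhydrase-like domain. Ptprg was measured at 208 ± 9.52 CPM in Control against 193 ± 4.02 CPM in CBP-ifKO (SD, n = 3 per group), a log2 fold change of -0.11 (edgeR adjusted p = 0.284). Ptprz1 was measured at 380 ± 47.5 and 341 ± 11.6 CPM (SD, n = 3 per group), a log2 fold change of -0.15 (edgeR adjusted p = 0.252), and it passed the threshold only without Control replicate 2, at -0.25. Neither gene was called by DESeq2 or limma-voom with all libraries, and neither was below an unadjusted p of 0.05.

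Levels per kilobase of exon placed the genes on one scale. In Control libraries the order was Car2 at 60.7 to 68.4 CPM per kilobase, Car11 at 32.4 to 42.2, Car4 at 10.4 to 11.96, Car10 at 5.39 to 6.05, Car12 at 4.66 to 4.96, Car7 at 3.07 to 3.78, Car14 at 1.92 to 2.46 and Car8 at 1.16 to 1.71. No neighbours in this order overlapped. In CBP-ifKO libraries the order of the means was kept, but Car12 at 2.20 to 2.71 CPM per kilobase overlapped Car7 at 1.58 to 2.27, and Car7 overlapped Car14 at 1.81 to 2.02.

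As a whole the 16 genes summed to 123 to 142 CPM per kilobase in Control and 109 to 119 in CBP-ifKO libraries. The membrane-bound and secreted class held 13.6 to 15.5% of this sum in Control and 9.55 to 11.2% in CBP-ifKO. The related proteins held 32.2 to 34.7% and 32.1 to 37.2%, and Car2 alone held 48.0 to 49.4% and 48.4 to 55.4%. The membrane-bound share did not overlap between the groups, while the share of the related proteins did. Car12 and Car4 belong to the membrane-bound class and were picked on this contrast, so nothing is read from its separation. Within the membrane-bound class, the ratio of Car12 to Car14 was 1.97 to 2.52 in Control and 1.21 to 1.35 in CBP-ifKO. That of Car12 to Car4 was 0.415 to 0.464 and 0.336 to 0.431, with overlap. These ratios are descriptions for the same reason.

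The proteins that bind the related proteins and the receptor phosphatases (neurexins, inositol trisphosphate receptors and contactins) were measured next. Of 11 such genes, all tested, 2 fell and 9 were not called, with a median log2 fold change of -0.12. The share called lower over all genes tested was 4.99%. Nrxn2, a presynaptic neurexin, fell from 110 ± 10.4 to 76.8 ± 8.39 CPM (SD, n = 3 per group), or -0.52 on the log2 scale with an SE of 0.085 (edgeR adjusted p = 0.00137). With GC content and length offset it was still called, at -0.24 (adjusted p = 0.0389). Cntn5, a contactin, fell from 20.1 ± 1.92 to 14.6 ± 1.45 CPM, at -0.45 ± 0.11 (SE, edgeR adjusted p = 0.0243), a call that was lost in 4 of 6 fits without one library. Itpr1, the most abundant of these genes, was not called, at 946 CPM in Control against 905 CPM in CBP-ifKO (edgeR adjusted p = 0.519).

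Genes that move bicarbonate, protons and chloride were read in the same way, beside 6.39% of all genes tested called in either direction. Of 15 bicarbonate transporter genes 9 were tested and 0 were called by edgeR, DESeq2 or limma-voom, with 1 at an unadjusted p under 0.05. The 17981 genes tested gave 3816 at that level. Slc4a10, a neuronal sodium-bicarbonate transporter, was at 366 and 346 CPM (log2 fold change -0.08, edgeR adjusted p = 0.469), and Slc4a4, a glial one, at 302 and 329 CPM (0.12, edgeR adjusted p = 0.241). Of 15 proton exchangers and lactate carriers 14 were tested and 1 rose. That gene was Slc9a4, a sodium-proton exchanger, from 22.1 ± 1.39 to 29.8 ± 3.68 CPM (SD, n = 3 per group), or 0.44 on the log2 scale with an SE of 0.10 (edgeR adjusted p = 0.0164), and the call was lost without CBP-ifKO replicate 2. Bsg, the chaperone of the lactate carriers, was at 216 and 220 CPM (edgeR adjusted p = 0.881).

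Of 8 chloride cotransporter genes 6 were tested and 0 were called by edgeR. At an unadjusted p under 0.05 there was 1, beside 3816 of 17981 genes tested, and DESeq2 and limma-voom each called 1. That gene was Slc12a5, the neuronal potassium-chloride cotransporter that sets the chloride gradient for GABA-A receptors. It was measured at 359 ± 6.85 CPM in Control against 308 ± 29.6 CPM in CBP-ifKO (SD, n = 3 per group), or -0.22 on the log2 scale with an SE of 0.066 (edgeR adjusted p = 0.0535). With GC content and length offset it was -0.05 (adjusted p = 0.664). Slc12a2, which loads chloride into cells, was at 114 and 118 CPM (0.05, edgeR adjusted p = 0.735).

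The sensors of protons and bicarbonate had the lowest median of the 5 lists. Of 8 genes 7 were tested, 3 fell (2 in DESeq2) and 4 were not called, and the median log2 fold change was -0.40. Over all genes tested 4.99% were called lower. Asic4, a member of the acid-sensing ion channel family, fell from 4.31 ± 0.909 to 1.74 ± 0.369 CPM (SD, n = 3 per group), or -1.31 on the log2 scale with an SE of 0.24 (edgeR adjusted p = 0.00381). Exons of Asic4 share 18.1% of their bases with a gene model on the opposite strand. Asic2, a subunit of neuronal acid-sensing channels, fell from 43.5 ± 2.92 to 31.4 ± 1.91 CPM, at -0.47 ± 0.083 (SE, edgeR adjusted p = 0.00247), and at -0.28 (adjusted p = 0.0299) with the offsets. Asic1, the main subunit of neuronal proton-gated currents, was at 21.6 and 19.7 CPM, and Adcy10, the bicarbonate-stimulated adenylyl cyclase, at 3.57 and 2.86 CPM (edgeR adjusted p = 0.488 and 0.520).

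**Figure D3:**
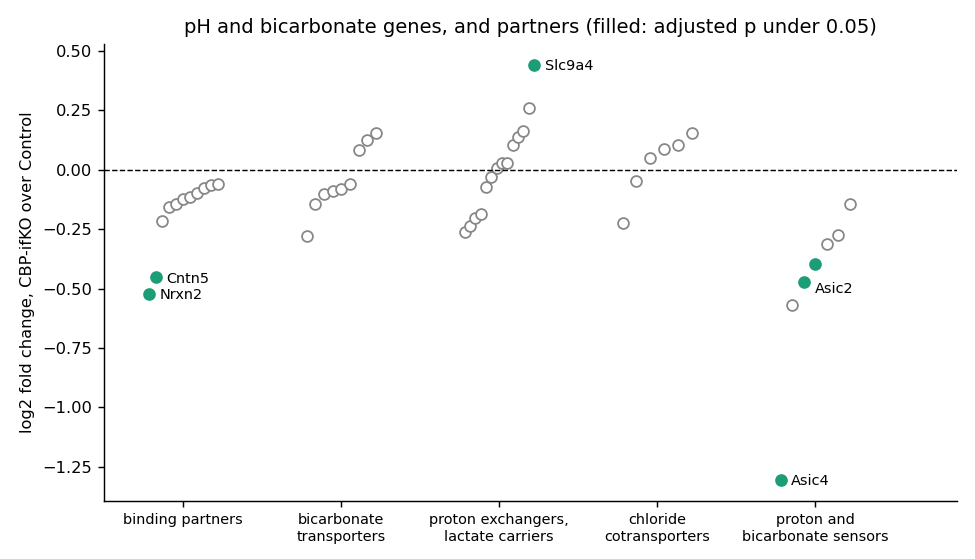
Log2 fold change of CBP-ifKO over Control (vertical axis) for the tested genes of 5 lists around the carbonic anhydrases (horizontal axis). Each point is a gene and filled points passed the edgeR threshold; Nrxn2, Cntn5, Asic4 and Asic2 lie below 0 and Slc9a4 above it at 0.44.

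Marker genes of the cell types that a hippocampal dissection can hold are given beside the 4 lower genes. For comparison, 4.99% of all genes tested were called lower and 1.40% higher. The excitatory neuron markers that define the tissue were abundant, with a summed level of 3233 to 3619 CPM in Control against 3245 to 3600 CPM in CBP-ifKO. Much of this sum was Camk2a, the driver gene of the creERT2 transgene, with group means of 1939 (Control) and 2066 CPM (CBP-ifKO). Nrgn, from the same list, was called lower at -0.73 (edgeR adjusted p = 0.000176), so the near-equal sum does not describe each gene. Of 5 markers of CA1 pyramidal neurons 4 fell (3 in DESeq2), including Wfs1, a protein of the endoplasmic reticulum, at -1.19 and Fibcd1, a chitin-binding receptor, at -0.63 (edgeR adjusted p = 8.343e-07 and 1.484e-05). The 5 markers summed to 349 to 361 CPM in Control against 222 to 236 CPM in CBP-ifKO. Of the 4 that fell, Pou3f1 was called in 8 of 17 alternatives, with log2 fold changes from -0.48 to -0.09. Fibcd1 stayed called in all 17, from -0.63 to -0.44. The part of this marker difference in the carbonic anhydrase values was not tested.

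Of 4 markers of oligodendrocyte precursors 3 fell (2 in DESeq2 or limma-voom), among them Pdgfra at -0.38 and Cspg4 at -0.57 (edgeR adjusted p = 0.00263 and 0.00251, with Cspg4 at -0.36 under the offsets), and the summed level was 138 to 149 and 106 to 108 CPM. Of 9 interneuron markers 2 fell, Sst at -0.51 and Slc32a1 at -0.38 (edgeR adjusted p = 0.00154 and 0.0450), and the summed level was 764 to 779 and 695 to 739 CPM. The call of Slc32a1 held in 7 of 17 alternatives, and it was at -0.15 under the offsets. Of 6 dentate granule cell markers 2 fell and 1 rose, with summed levels of 402 to 438 and 441 to 487 CPM. C1ql2 was at -2.22, Tdo2 at -0.89 and Lct at 0.71 (edgeR adjusted p = 7.272e-06, 0.00172 and 6.497e-05), so the higher sum does not describe each gene. Of the 6 general excitatory markers only Nrgn fell, and of 4 thalamic markers only Calb2. Calb2 went from 22.9 ± 3.86 to 16.1 ± 2.70 CPM (SD, n = 3 per group), at -0.49 (edgeR adjusted p = 0.0382, called in 11 of 17 alternatives). The other 3 thalamic markers were not called, and the list of 4 summed to 50.2 to 54.9 and 37.6 to 44.3 CPM. Calb2 is part of this sum, so the lower sum is not read as a difference in thalamic tissue. No marker of these lists was at 0 in any library, and their part in the carbonic anhydrase values was not tested.

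Markers of oligodendrocytes, astrocytes, microglia, endothelial cells and CA3 neurons gave 0 calls in edgeR, DESeq2 and limma-voom. At an unadjusted p under 0.05 they gave 2 of 10, 1 of 10, 2 of 10, 2 of 10 and 2 of 5. All genes tested gave 3816 of 17981 at that level. The oligodendrocyte list summed to 2508 to 2979 CPM in Control against 2583 to 2809 CPM in CBP-ifKO. The astrocyte list summed to 5559 to 6376 against 5694 to 5817 CPM, the microglial list to 277 to 308 against 269 to 293 CPM and the endothelial list to 245 to 267 against 212 to 255 CPM, all with overlap. The CA3 list did not overlap, at 118 to 129 against 102 to 113 CPM, and its part in the carbonic anhydrase values was not tested.

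The choroid plexus, an epithelium that borders the hippocampus and is rich in Car12 and Car2, left few reads in these libraries. Of its 10 markers 5 were under 1 CPM in all 6 libraries, Folr1 among them at 0.394 to 0.595 CPM. The 5 tested markers gave 0 calls in edgeR, DESeq2 and limma-voom. Of these, 1 was at an unadjusted p under 0.05, beside 3816 of all 17981 genes tested. The 10 markers summed to 43.8 to 59.1 CPM in Control against 35.5 to 60.3 CPM in CBP-ifKO, so the groups overlapped. Kl made up much of this sum, at 22.3 to 26.2 CPM in Control and 25.3 to 29.9 CPM in CBP-ifKO. Ttr, a transport protein that this epithelium secretes, ranged from 15.4 to 25.0 CPM in Control and from 4.07 to 21.2 CPM in CBP-ifKO. Its log2 fold change was -0.56 (edgeR adjusted p = 0.320), and it was called lower in 3 of 17 alternatives. The part of this epithelium in the carbonic anhydrase values was not tested.

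**Figure D4:**
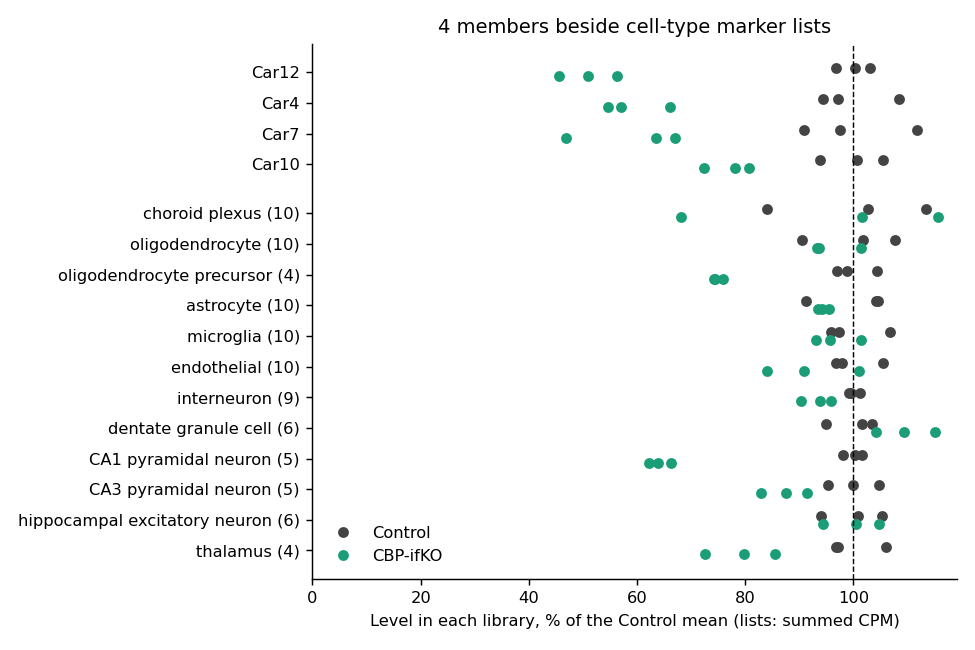
Level in each library as a percent of the Control mean (horizontal axis, from 0) for Car12, Car4, Car7 and Car10 and for the summed CPM of 12 cell-type marker lists, with the number of genes of each list in brackets. Points are libraries, and the CA1, CA3, oligodendrocyte precursor, interneuron and thalamus sums are lower in all CBP-ifKO libraries. The thalamus sum holds Calb2, the only gene of that list that was called. The dentate granule cell sum is higher, although 2 of its 6 genes were called lower and 1 higher. The choroid plexus, oligodendrocyte and excitatory neuron sums overlap.

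The genes whose log2 CPM followed Car12 most closely over the 6 libraries, among 17432 genes of at least 1 CPM on average, were Otof (r = 0.998), Cacna1i (r = 0.998), Myo18a (r = 0.996), Rab26 (r = 0.994) and Syt13 (r = 0.993). The points share their libraries and fall into 2 genotype groups, so the likeness follows the group difference in large part. Otof, the calcium sensor otoferlin, was at 7.93 to 8.26 CPM in Control against 1.38 to 2.39 CPM in CBP-ifKO. Cacna1i, a low-threshold calcium channel, was at 72.6 to 75.3 and 51.5 to 57.6 CPM. Their log2 fold changes were -2.13 and -0.44 in turn (-0.23 for Cacna1i with the offsets), so a high correlation went with unlike sizes. Within Control, Cacna1i kept the order of libraries of Car12 and Otof did not. In Control replicate 3 Car12 was at its highest, 37.7 CPM, and Otof at its lowest Control level, 7.93 CPM.

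By the same measure the other members stood at r = 0.97 for Car10, 0.96 for Car4, 0.83 for Car7, 0.68 for Car14, 0.45 for Car2, 0.40 for Car11 and 0.31 for Car8. Each of the 3 genes called lower beside Car12 was closer to it than any member that was not called, which the choice of genes on this contrast largely fixes.

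The genes next to the 4 lower members were read from the same fit. Of 24 tested protein-coding neighbours, 3 on each side of Car12, Car4, Car7 and Car10, 0 were called lower and 1 was called higher in edgeR, beside 4.99% and 1.40% of all genes tested, and at 24 genes a count of 0 is near that share. That gene was Cbfb, a partner of the RUNX transcription factors beside Car7, at 29.0 ± 1.18 and 39.1 ± 2.95 CPM (SD, n = 3 per group), a log2 fold change of 0.43 (edgeR adjusted p = 0.00517). The 6 neighbours of Car12 had log2 fold changes from 0.004 to 0.75, against -0.98 for Car12 itself. The upper end was Gm10647, a scarce gene at 0.76 and 1.31 CPM with an SE of 0.36, and the next highest was Aph1c at 0.25. DESeq2 and limma-voom each called 0 of the 24 lower, and 0 were lower at an unadjusted p under 0.05 in edgeR. This comparison was added after the values had been seen.

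**Figure D5:**
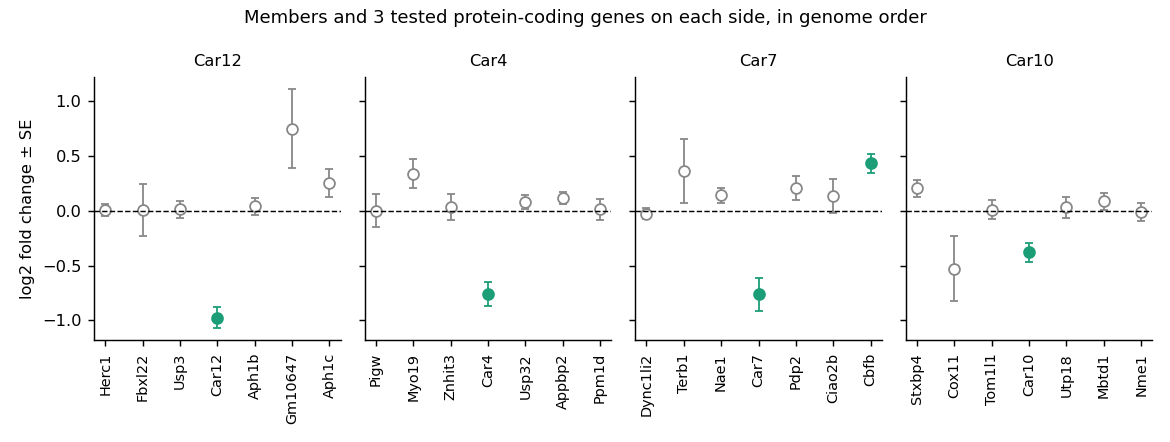
Log2 fold change of CBP-ifKO over Control (vertical axis) for Car12, Car4, Car7 and Car10 and the 3 nearest tested protein-coding genes on each side of each, in genome order (horizontal axis). Points are edgeR estimates, error bars are SE and filled points passed the threshold; each member is the only filled point below 0 in its panel.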

How the data were processed

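The authors deposited raw counts per gene for 6 hippocampal RNA libraries (50-base single-end reads), with the exon length of each gene in a further column. Per the labels and methods, reads were trimmed with Trim Galore 0.6.4, aligned to GRCm38 with STAR 2.6.1 and counted over exons with Rsubread. Whether strand was used is not given in the sources used here. Columns were matched to samples by name. Of the identifiers, 99.57% matched GENCODE M21, which gave symbols and coordinates.

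Counts were fitted on genotype with edgeR 4.0.16 (quasi-likelihood F-test, TMM, filterByExpr with a minimum count of 10 and total of 15) in R 4.3.3. Benjamini-Hochberg adjustment ran over all 17981 genes tested, with a threshold of 0.05. The common coefficient of variation was 6.81%. SE is the log2 fold change over the square root of F. The script was tested on simulated counts. Alternatives were DESeq2 1.42.0, limma-voom 3.58.1 and 15 other settings of scaling, filter, samples, block and GC or length offsets. Replicate pairs of one group differed by more than sampling noise. Intervals for counts of 0 cover counting error only.

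The members and gene lists were chosen with earlier results of these data known. Genes named besides the members were the other family genes, Crebbp and Esr1, the called genes (up to 3) and the 2 most abundant genes not called of each pathway list, marker genes beside a member and the 5 genes most like Car12. Some genes that this rule names are counted in their lists but not reported here. A comparison of the proteins was not run.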

Additional observations from a re-analysis of the deposited data

How the results depend on the processing

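Car12, Car4 and Car7 stayed past the threshold and negative under all 17 alternatives, and Car10 under 15 of them. The 2 exceptions leave out a library. The members were picked on the contrast of these same libraries, so refitting them gives no independent support for the calls. The estimates ran from -0.84 to -0.70 for Car4, from -0.85 to -0.61 for Car7 and from -0.42 to -0.32 for Car10. The number of members called was 4 in each fit with all libraries and 3 to 4 in fits without one. Over all genes these fits gave 896 to 1837 and 498 to 1326 calls in turn. Signs were not settled for Car11 (0.07 with GC and length offsets), Car8 (0.04 without Control replicate 1), Bsg (-0.052 to 0.1524 in fits without one library), Car5b (-0.1914 to 0.0057 in fits without one library) or Asic1 (0.025 with GC and length offsets and 0.0234 with the replicate block added), none of them called there.

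The 1149 calls, 78.1% of them lower, became 896 with DESeq2 and 1837 with both the replicate block and the GC and length offsets, where 715 were higher. The share called lower was 56.5% with library totals only, where 514 were higher and the median of all genes moved to 0.0425, 66.3% with GC and length offsets and 61.1% with the block and offsets. Without a filter on low counts 413 were higher. Leaving out one library gave 498 to 1326 calls, 416 to 984 lower and 76 to 342 higher. Control replicate 3 and CBP-ifKO replicates 2 and 3 each moved the count by over 1.5 times, to 546, 498 and 526. The replicate block alone gave 1210 calls, of which 1091 were shared, and 4 members. The numbers were not taken to pair the samples, since same-numbered libraries correlated at 0.0769, 0.0369 and 0.00216 in their deviations, and Control replicate 2 correlated best with CBP-ifKO replicate 3.

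The calls over all genes moved with the settings too, from 1149 of 17981 to 1837 of 17956 with the block and offsets and 1097 with offsets alone. DESeq2 gave 896, limma-voom 1155, robust dispersions 1250, no filter 1511 of 35043 and the replicate block 1210. Fits without one library gave 498 to 1326. Among the lists, binding partners gave 4 calls with the block and offsets and 1 to 2 without one library. Proton exchangers gave 2 with offsets, 3 with the block and offsets and 0 to 1 without one library. Bicarbonate transporters gave 1 without the filter and 0 to 1 without one library. Chloride cotransporters gave 1 with DESeq2, limma-voom, robust dispersions, no filter and the replicate block, and 0 to 1 without one library. Sensors gave 2 to 3 calls. The cause of these moves was not tested. Among the 8 members, Car14 and Car8 had the fewest counts, at 45 to 73 per library, and of the other named genes Car13 and Car15 had 10 to 33.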
